A study of Mus musculus with 11 samples.

Results

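The hormone-like factors Fgf21 and Nrg4 of thermogenic fat were followed in cultured mouse adipocytes together with Klb and Fgfr1, which form the Fgf21 receptor, and with Metrnl and Vegfa, other factors that fat cells secrete. These 6 genes were picked by symbol from the 29955 gene symbols measured, each by its sense-strand value on the transcript the deposited files mark as representative. FPKM, the unit of all levels below, is the number of bases mapped to a transcript scaled to its exon length and to all mapped bases of the sample, so levels of different genes can be set side by side.

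Fgf21 is a fibroblast growth factor that circulates as a hormone. It signals only in cells that carry βKlotho (Klb) beside an FGF receptor, chiefly Fgfr1 in fat, and its transcription is known to respond to PPARα, PPARγ and the stress factor ATF4, and in brown fat to adrenergic signals. Nrg4 is an EGF-family ligand made by brown fat that is read by ErbB4, and with ErbB3, on other cells such as hepatocytes. Metrnl is a secreted protein linked to browning of fat. Vegfa is the main growth factor of blood vessels and is read by Flt1 and Kdr on endothelium, with Nrp1 and Nrp2 as co-receptors.

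The cells were im-scWAT, a line of preadipocytes from mouse inguinal subcutaneous white fat immortalized with a viral large T antigen. A time course held 1 sample each at day 0, day 4 and day 8 (D0, D4, D8) with rosiglitazone (ROS, a PPARγ agonist, 0.5 µM) and without it. From D0 the cells were induced with indomethacin, dexamethasone, IBMX, insulin and T3. By the study's methods ROS was first added at that time too. The pair at D0, labelled ROS plus and ROS minus, was therefore treated as not yet exposed and served as 1 group of 2. A second set of 5 samples at D8 with ROS carried retroviral sh-mJmjd1a against the mouse histone demethylase Jmjd1a (Kdm3a) and a human JMJD1A: wild type (WT A and WT B), S265A, S265D, or S265D-H1120Y, which adds a mutation of the Fe(II)-binding site. S265 is the residue phosphorylated on adrenergic signalling, S265A cannot be phosphorylated there and S265D mimics the phosphate. The mutants had 1 sample each, nothing in the labels says that WT A and WT B came from separate cultures, and in samples of whole cultures fewer cells of a kind and less RNA per cell cannot be told apart.

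Sequencing depth lay between 3.10 and 5.29 Gb of mapped bases per sample. Kdm3a, the target of the shRNA, was measured at 15.1 to 23.2 FPKM in the time course and at 13.0 (S265A) to 28.5 FPKM (S265D-H1120Y) in the transduced samples, so the knockdown was not visible in this gene; reads of the introduced human JMJD1A may count there, which was not tested, and the transduced libraries are named by their labels only. The 8 adipocyte markers summed to 282 and 285 FPKM at D0 and to between 10286 and 36475 FPKM in the later samples, and the 6 beige markers (Ucp1 and others) to 225 FPKM at D8 with ROS against 51.0 without it. Of 6 markers each for endothelium, macrophages, skeletal muscle and liver, 1 of each list passed 1 FPKM in any sample: Pecam1 (0.0526 to 3.47 FPKM), Cd68 (0.541 to 21.7), Acta1 (0.224 to 19.3) and Apoa1 (0 to 3.24). Of these, Pecam1 and Cd68 were higher in all 5 transduced samples than in the time course, and Acta1 was at 19.3 FPKM in WT B against 1.40 FPKM in WT A; their part in the results was not tested. The defining markers Cdh5, Ptprc, Emr1 and Myod1 were at or near 0 throughout. WT A and WT B stood far apart: 27.2% of 15837 genes differed at least 2-fold between them, against 4.90% of 15030 genes between the D0 samples. The beige markers summed to 199 FPKM in WT A and 26.9 FPKM in WT B, and the 6 preadipocyte markers to 146 and 569 FPKM. The adipocyte markers summed to 15795 and 29812 FPKM. Fabp4 made up most of the adipocyte sum in every sample, at 12393 FPKM in WT A and 26902 FPKM in WT B. Lpl and, slightly, Pparg were also higher in WT B, while Adipoq, Plin1, Cidec, Retn and Cebpa were higher in WT A.

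**Figure D1:**
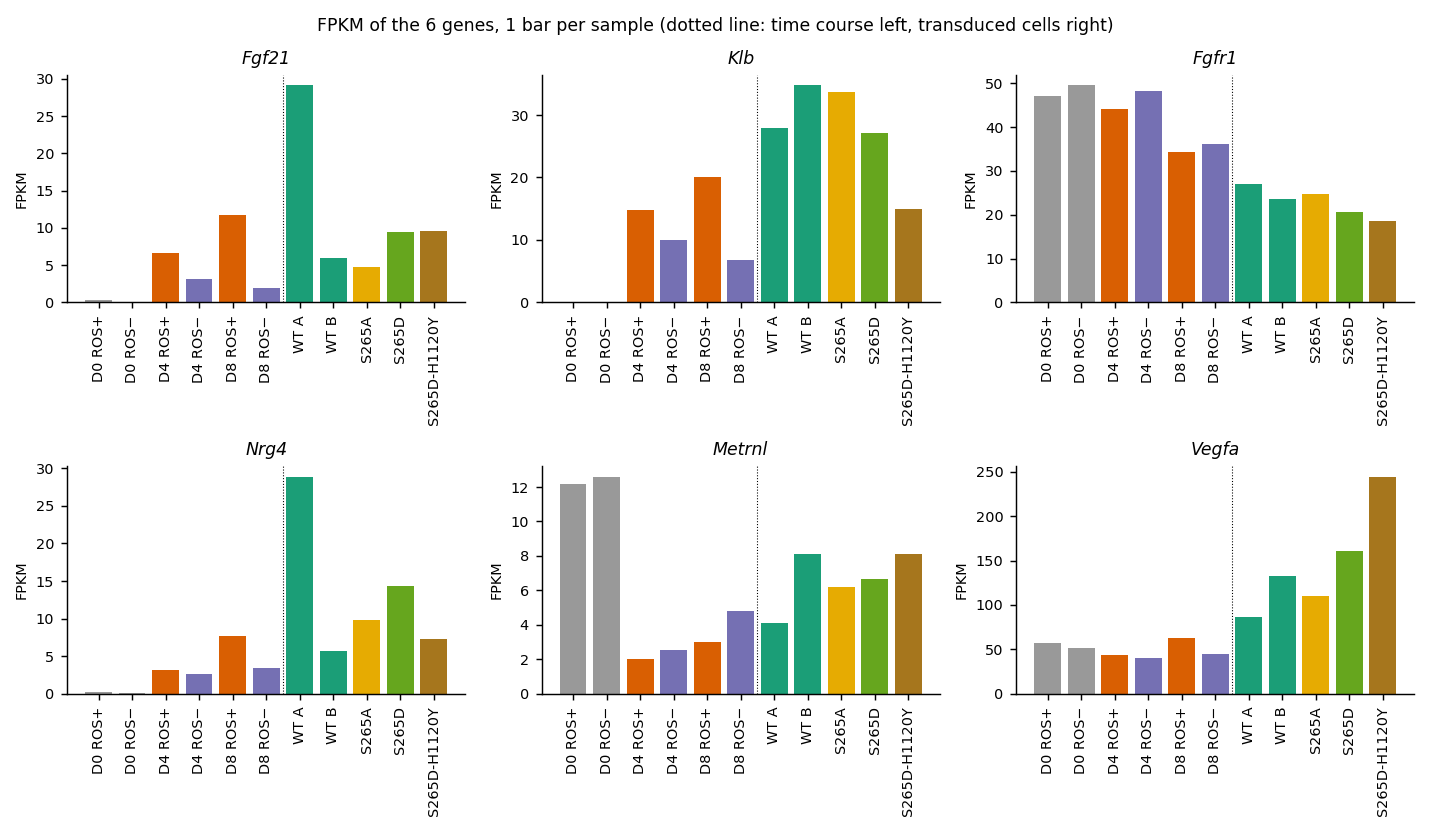
FPKM (y axis, linear from 0, own scale per gene) of the 6 genes in each of the 11 samples, 1 bar per sample and no error bars; grey marks D0, orange and purple the cells with and without ROS, and the other colours the transduced samples. Fgf21 and Nrg4 are both near 0 at D0 and highest in WT A, at 29.1 and 28.9 FPKM, while Vegfa is highest in S265D-H1120Y at 245 FPKM.

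Fgf21 (uc009gwe.1, mm9 chr7:52869260-52870860, minus strand, 1 transcript in the files) was almost silent in preadipocytes and present in every differentiated sample. It stood at 0.270 and 0 FPKM at D0, at 6.61 FPKM with and 3.20 FPKM without ROS at D4, and at 11.8 and 1.93 FPKM at D8. In the transduced cells it stood at 29.1 FPKM in WT A, 5.93 in WT B, 4.74 in S265A, 9.40 in S265D and 9.55 in S265D-H1120Y. Between D4 and D8 the level rose with ROS and fell without it in these single samples, by ratios of 1.78 and 0.601.

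With ROS, Fgf21 was 2.06-fold higher at D4 and 6.11-fold higher at D8. On the log2(FPKM + 0.1) scale the D8 difference was 2.55 ± 1.34 (SE), with an adjusted p of 0.345 by limma. The error came from the D0 pair, which held 1 library at 0. The difference at D8 exceeded that at D4 by 1.53 ± 1.90 (limma, adjusted p = 0.724). Over D0 the log2 differences were 5.12 at D4 and 5.95 at D8 with ROS (adjusted p of 0.0934 and 0.0674 by limma), and 4.10 and 3.40 without it (adjusted p of 0.129 and 0.155). None of these passed the threshold of 0.05, in a fit with 1 residual degree of freedom.

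The promoter is shown because regulators of Fgf21 that bind such elements were measured too. The 250 bases before the start, from RefSeq, match mm9 at 1 place, chr7:52870861-52871110, and end exactly where the deposited transcript begins. Capitals mark 3 motifs found on either strand. GC boxes (GGGCGG) and ACGTG, the core of the hypoxia-response element, were also searched and found here, and are not marked separately.
Fgf21 promoter, 5′ to 3′: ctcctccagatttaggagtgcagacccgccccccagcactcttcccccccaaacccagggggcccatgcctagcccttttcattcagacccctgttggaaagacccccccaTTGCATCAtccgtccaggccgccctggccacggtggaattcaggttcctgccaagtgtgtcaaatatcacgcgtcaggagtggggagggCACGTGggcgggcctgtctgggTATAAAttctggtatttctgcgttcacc
The first, starting 139 bases before the start, is TGATGNAA read on the other strand, the element that ATF4 binds with C/EBP factors, and 3.45% of the 32851 RefSeq promoter windows of this length hold it. The second is the E-box CACGTG (6.02% of windows), an element that ChREBP (Mlxipl) and other basic helix-loop-helix factors read. The third is TATAAA, 28 bases before the start (12.4% of windows). AGGTCA, the nuclear receptor half-site, was not in this window.

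The genes known to act upstream of Fgf21 differed in how they moved. Of 14 such regulators, 2 were at least 2-fold higher with ROS at D8 and 1 at most 0.5-fold, against 4% and 15.2% of all genes, and 11 lay between. Ppara, the fatty-acid sensor that drives Fgf21 in liver, stood at 9.77 FPKM with and 2.28 FPKM without ROS at D8, a ratio of 4.28. Ppargc1b, a coactivator, was 2.40-fold higher, while Pparg, the receptor of ROS itself, was at 140 FPKM with and 231 FPKM without it (ratio 0.604). Creb3l3, which works with PPARα in liver, was below 0.35 FPKM in every sample.

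Across the transduced samples Ppara was, like Fgf21, highest in WT A and lowest in S265A, with 12.1 FPKM in WT A, 5.69 in S265D, 2.39 in S265D-H1120Y, 1.83 in WT B and 1.71 in S265A. Mlxipl stood at 23.2 FPKM in WT A against 4.47 FPKM in WT B. Of the 12 ATF4 stress-response genes, 9 were higher in WT B and 3 in WT A. At least 2-fold higher were 5 in WT B and 0 in WT A, where 16.4% and 10.8% of 15837 genes were. The pro-apoptotic stress gene Ddit3 was at 112 FPKM in WT A against 497 FPKM in WT B, and reached 721 FPKM in S265D-H1120Y; Chac1 was at 7.51, 44.3 and 70.6 FPKM in these libraries. With ROS at D8, 0 of these 12 genes reached a 2-fold ratio in either direction, where 4% of all genes were higher and 15.2% lower by that ratio.

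Klb (uc008xnn.1, mm9 chr5:65739650-65775242, plus strand) switched on with differentiation. It stood at 0.0125 and 0.0124 FPKM at D0, at 14.8 FPKM with and 10.0 FPKM without ROS at D4, and at 20.1 and 6.81 FPKM at D8. The D0 values rest on 200 and 198 mapped bases, so no fold against D0 is given. Errors taken from this pair measure no spread at the later levels. The later samples all lay above the D0 samples by orders of magnitude, and on the log2(FPKM + 0.1) scale the differences over D0 were 7.05 (D4 with ROS), 7.49 (D8 with ROS), 6.50 (D4 without) and 5.94 (D8 without), with adjusted p between 0.0164 and 0.0275 by limma.

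Klb was 1.48-fold higher with ROS at D4 and 2.95-fold at D8, a log2 difference of 1.54 ± 0.07 (SE) with an adjusted p of 0.0972 by limma. The gain from D4 to D8 was 0.99 ± 0.10 (limma, adjusted p = 0.256). Both errors came from the D0 pair, where Klb was near 0, so they do not measure spread at these levels. Among transduced cells, Klb stood at 27.9 FPKM (WT A), 34.7 (WT B), 33.8 (S265A), 27.2 (S265D) and 14.9 FPKM (S265D-H1120Y). The S265D-H1120Y library was the lowest, 0.548-fold the S265D library, and the other 4 lay within 1.3-fold of each other. The standard error of that difference, taken from the WT pair, was 0.48 around a log2 value of -0.86, so it was not resolved (limma, adjusted p = 1).

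Fgfr1 (mm9 chr8:26629244-26686186, plus strand), the kinase partner of Klb, was the steadiest of the 6 genes. It was at 47.0 and 49.5 FPKM at D0, 44.1 FPKM with and 48.3 FPKM without ROS at D4, and 34.2 and 36.1 FPKM at D8. The transduced samples ran from 27.0 FPKM in WT A through 24.8 (S265A), 23.6 (WT B) and 20.7 (S265D) to 18.7 FPKM (S265D-H1120Y). Both D8 samples were below the D0 and D4 samples, and all 5 transduced samples were below both. The log2 difference of D8 with ROS from D0 was -0.49 ± 0.08 (limma, adjusted p = 0.0501), and that of ROS at D8 was -0.08 ± 0.09 (adjusted p = 0.606), which became 0.11 when samples were rescaled to equal medians.

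The other FGF receptors were minor. Fgfr2 ran from 0.126 to 7.57 FPKM, with both extremes in the WT pair (WT A 7.57, WT B 0.126). Fgfr3 stayed below 0.9 FPKM, and Fgfr4 and Kl, the partner of Fgf23, at or near 0. Fgfrl1, a decoy without a kinase, was at 9.97 and 10.5 FPKM at D0 and at 39.7 to 117 FPKM in the later samples. Of the 23 measured genes of FGF signalling, Fgf21, Klb and Fgfr1 included, 2 were at least 2-fold higher with ROS at D8 and 3 at most 0.5-fold. Of all genes, 4% and 15.2% were. The 2 higher ones were Fgf21 and Klb themselves. The median log2 difference of the group was -0.16 against -0.20 for all genes. Fgf7, a ligand of Fgfr2, was among the lower ones (0.775 FPKM with and 3.45 FPKM without ROS). Over D0, 8 of 23 passed limma upwards and 5 downwards at D8 with ROS, where 47.2% of all genes passed in either direction.

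The files also let 1 coding exon of Fgfr1 be followed. Transcripts uc009lfy.1 and uc009lga.1 differ by an inner exon of 267 bases, mm9 chr8:26665980-26666246, which encodes the first immunoglobulin-like domain; receptors with it are called the alpha and those without it the beta form. In 46 such transcript pairs the longer transcript never had fewer mapped bases than the shorter one. Counting by position would give this, but so would counting whole reads, so the check cannot tell these apart. The difference between the 2 transcripts was taken as the coverage of that exon. The exon is printed in capitals on the coding strand, with 10 intron bases in lower case on each side.
Fgfr1 267-base exon: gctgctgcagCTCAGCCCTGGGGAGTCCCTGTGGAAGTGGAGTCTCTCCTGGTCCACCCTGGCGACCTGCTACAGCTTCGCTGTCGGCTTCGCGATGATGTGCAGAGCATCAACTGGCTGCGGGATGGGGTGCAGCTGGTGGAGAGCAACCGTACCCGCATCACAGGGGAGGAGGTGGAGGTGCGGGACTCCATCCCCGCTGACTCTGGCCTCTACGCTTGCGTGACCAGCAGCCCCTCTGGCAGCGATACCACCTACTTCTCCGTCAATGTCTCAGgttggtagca
It keeps the reading frame (89 codons). Its coverage per position, over that of the other exons, was 0.471 and 0.473 at D0. It was 0.564 with and 0.618 without ROS at D4, and 0.555 and 0.607 at D8. Among transduced cells, WT A gave 0.669, WT B 0.592, S265A 0.659, S265D 0.595 and S265D-H1120Y 0.593. All later samples were above the D0 pair, and both samples without ROS were above their partners with it. The WT pair alone spanned 0.592 to 0.669, wider than the gap between cells with and without ROS. These ratios are a description of coverage, with no test, and are not measured shares of the alpha form.

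Nrg4 (uc009psf.2, mm9 chr9:55068029-55131432, minus strand) was, like Fgf21, near 0 at D0 and highest in WT A. It stood at 0.199 and 0.0655 FPKM at D0, at 3.20 FPKM with and 2.60 FPKM without ROS at D4, and at 7.67 and 3.48 FPKM at D8. Among transduced cells, WT A held 28.9 FPKM, WT B 5.67, S265A 9.87, S265D 14.4 and S265D-H1120Y 7.27 FPKM. Unlike Fgf21 it was higher at D8 than at D4 in both arms, by ratios of 2.40 with and 1.34 without ROS.

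Nrg4 was 1.23-fold higher with ROS at D4 and 2.20-fold at D8, a log2 difference of 1.12 ± 0.61 (SE) with an adjusted p of 0.357 by limma. Its 5 listed transcripts gave ratios of 2.09 to 2.20 at D8. Over D0 the log2 differences were 3.89 and 5.13 with ROS at D4 and D8, and 3.60 and 4.01 without it. Of these 4, that of D8 with ROS passed limma (adjusted p = 0.0317), and the others had adjusted p of 0.0519, 0.0607 and 0.0502. The last exon of Nrg4 overlaps Fbxo22 on the other strand, and the antisense signal over Nrg4 was 1.59 to 2.49 FPKM in all 11 samples. The values were counted by strand, and both D0 sense values were below the antisense values of the same samples.

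The promoter is shown beside that of Fgf21, since both genes were near 0 at D0 and highest in WT A. It matches mm9 at chr9:55131433-55131682 and ends at the start of the deposited transcript. Capitals mark the nuclear receptor half-site alone. ACGTG, which was also searched, occurs 222 bases before the start and is not marked.
Nrg4 promoter, 5′ to 3′: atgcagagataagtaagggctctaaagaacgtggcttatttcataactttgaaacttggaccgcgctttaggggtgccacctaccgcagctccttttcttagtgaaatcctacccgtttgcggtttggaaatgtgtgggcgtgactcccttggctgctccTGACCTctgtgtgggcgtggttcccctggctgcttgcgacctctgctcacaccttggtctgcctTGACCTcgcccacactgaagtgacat
TGACCT, the nuclear receptor half-site AGGTCA read on the other strand, occurs at 90 and at 26 bases before the start, and 14.0% of the 32851 windows hold this half-site at least once. The elements printed for Fgf21 (TGATGNAA, CACGTG and TATAAA) were not in this window. The windows of Klb, Metrnl and the upstream start of Vegfa held none of these 4 motifs.

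The receptors that read Nrg4 were barely measured in these cells. Erbb4 was at 0 in 10 of the 11 samples and at 0.00934 FPKM in S265D, and Erbb3 ran from 0.0919 to 0.351 FPKM. Erbb2, the shared partner without a ligand of its own, was at 10.5 and 11.2 FPKM at D0 and at 1.67 to 4.15 FPKM later, with 1.90 FPKM with and 4.15 FPKM without ROS at D8. Egfr was at 4.07 FPKM with and 10.7 FPKM without ROS at D8.

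Other ErbB ligands varied in their course. Hbegf, a ligand of Egfr, was at 8.09 and 8.41 FPKM at D0 and below 1 FPKM in every later sample, and Nrg1, a ligand of ErbB3 and ErbB4, at 10.9 and 9.84 FPKM at D0 and at 0.467 to 2.04 FPKM later. Egf (0.281 and 0.167 FPKM at D0, 0.403 to 1.10 FPKM later) and Btc (0.343 and 0.199 FPKM at D0, up to 1.42 FPKM in WT A) were low throughout and higher in most later samples. Adam17, a protease that sheds such ligands, stayed between 10.4 and 21.0 FPKM. Of the 16 measured genes of this group, 1 (Nrg4 itself) was at least 2-fold higher with ROS at D8, where 4% of all genes were. At most 0.5-fold were 5, where 15.2% of all genes were. Errfi1, a feedback inhibitor of Egfr, was among the latter, at 70.9 FPKM with and 165 FPKM without ROS.

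**Figure D2:**
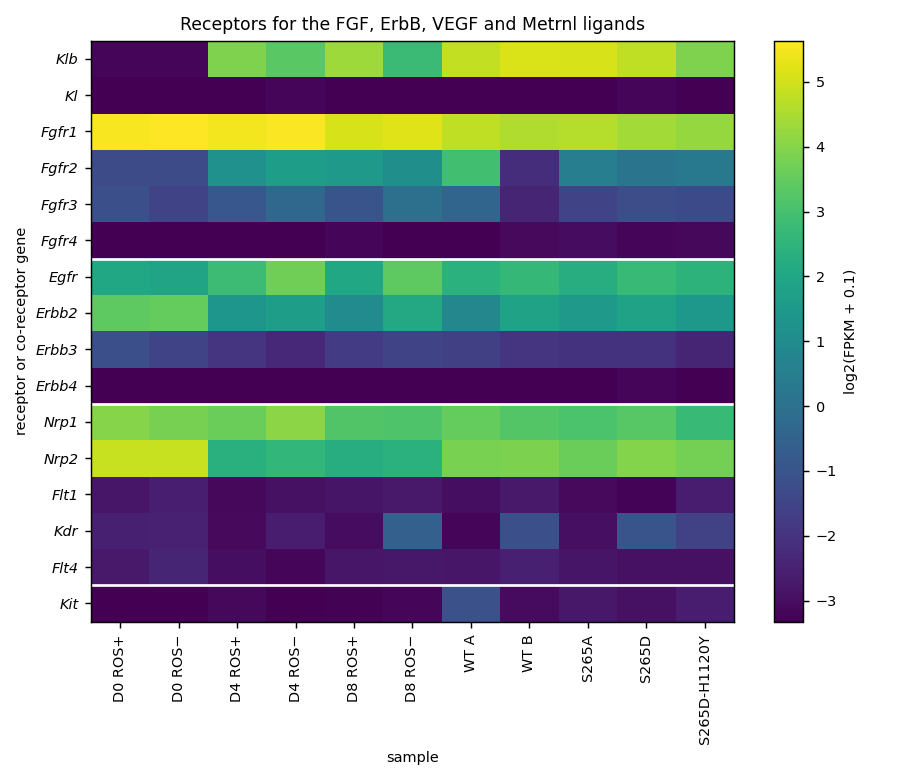
Receptor and co-receptor genes (rows) in the 11 samples (columns), coloured by log2(FPKM + 0.1); white lines separate the receptors for FGF, ErbB, VEGF and Metrnl ligands. Klb and Fgfr1 are both high after D0, while Erbb4, Kl, Fgfr4, Flt1 and Flt4 are at or near 0 in every sample.

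Fgf21 and Nrg4 had like levels over the samples as a whole, though not in each step: from D4 to D8 without ROS, Fgf21 was lower and Nrg4 higher. Pearson's r of their log2(FPKM + 0.1) values was 0.960 over 11 samples and 0.807 over the 9 samples after D0. The points share libraries and the step from preadipocyte to adipocyte, so r is given with no p. The 5 genes most like Fgf21, among 13615 genes with at least 1 FPKM in any sample, included Clpx (r = 0.969), a mitochondrial chaperone, Bckdhb (0.968), a subunit of the branched-chain ketoacid dehydrogenase, and 1700021F05Rik (0.964). Over the 9 samples after D0 r was 0.866 for Clpx, 0.922 for Bckdhb and 0.894 for 1700021F05Rik. Bckdhb was at 54.7 FPKM with and 22.4 FPKM without ROS at D8, and at 71.5 FPKM in WT A against 42.3 FPKM in WT B.

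For Nrg4 the 5 genes were Cecr2 (0.992), a bromodomain protein, Itgae (0.989), an integrin chain, 4632428C04Rik (0.985), Tmem45b (0.983) and Entpd5 (0.983), a nucleotide hydrolase. Tmem45b was at 11.6 FPKM with and 5.35 FPKM without ROS at D8 and at 25.2 FPKM in WT A against 5.76 FPKM in WT B. Ucp1, the uncoupling protein of thermogenic fat, gave r of 0.651 with Fgf21 and 0.710 with Nrg4, and of 0.720 and 0.832 over the 9 samples after D0. It separated the D8 arms far more, at 9.90 FPKM with and 0.0970 FPKM without ROS, where Fgf21 and Nrg4 were already made without the drug. In S265D-H1120Y, Ucp1 was at 0.0528 FPKM beside 9.55 FPKM of Fgf21 and 7.27 FPKM of Nrg4.

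Metrnl (uc007mwd.1, mm9 chr11:121563741-121578703, plus strand) had the opposite course. It was at 12.2 and 12.6 FPKM at D0, at 2.04 FPKM with and 2.52 FPKM without ROS at D4, and at 3.00 and 4.83 FPKM at D8. All later samples of the time course were below the D0 pair. The log2 differences from D0 were -2.54 (D4) and -2.01 (D8) with ROS and -2.25 and -1.34 without it, with adjusted p of 0.0235, 0.0164, 0.0275 and 0.0272 by limma. With ROS, Metrnl was 0.810-fold at D4 and 0.621-fold at D8, a log2 difference of -0.67 ± 0.08 at D8 (limma, adjusted p = 0.111).

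Among transduced cells, Metrnl stood at 4.11 FPKM (WT A), 8.11 (WT B), 6.18 (S265A), 6.68 (S265D) and 8.09 FPKM (S265D-H1120Y). The 3 mutants lay between the WT samples. Metrn, its paralogue, was at 6.98 FPKM with and 13.5 FPKM without ROS at D8. Kit, reported as a receptor of Metrnl, was below 0.06 FPKM in all samples except WT A, where it was at 0.370 FPKM.

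Vegfa (uc008crp.2, mm9 chr17:46153943-46169326, minus strand) was the most abundant of the 6 genes in every sample except the D4 samples, where Fgfr1 was higher. It was at 57.4 and 51.6 FPKM at D0, at 43.8 FPKM with and 40.8 FPKM without ROS at D4, and at 63.0 and 44.7 FPKM at D8. The transduced samples stood at 86.7 FPKM (WT A), 133 (WT B), 110 (S265A), 160 (S265D) and 245 FPKM (S265D-H1120Y). All 5 transduced samples were above every sample of the time course, and experiment and transduction cannot be told apart. With ROS, Vegfa was 1.07-fold at D4 and 1.41-fold at D8, a log2 difference of 0.49 ± 0.13 (limma, adjusted p = 0.182). No difference from D0 passed limma, with adjusted p between 0.122 and 0.256.

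Part of the hypoxia group was high in the same library as Vegfa. Slc2a1, the basal glucose carrier, was at 171 FPKM in S265D-H1120Y and at 29.2 (WT A), 41.8 (WT B), 47.1 (S265A) and 70.0 FPKM (S265D) in the others, and Ndrg1 at 585 FPKM against 43.3 to 120 FPKM. Over the 11 samples r between Vegfa and Ndrg1 was 0.896. Pgk1, a glycolytic enzyme of the same group, was at 2033 FPKM there against 1006 to 1906 FPKM. Of the 17 hypoxia-response genes measured, 2 were at least 2-fold higher in S265D-H1120Y than in S265D and 0 at most 0.5-fold, against 5.62% and 8.66% of all genes. With ROS at D8, Egln3, an oxygen sensor, was 2.94-fold and Bnip3, a mitophagy receptor, 2.19-fold higher, and Adm, a vasodilator peptide, 0.483-fold.

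The receptors of Vegfa on endothelium were near 0: Flt1 and Flt4 stayed below 0.1 FPKM, and Kdr ran from 0.00981 to 0.567 FPKM. The co-receptors were present. Nrp1 ran from 6.44 to 16.6 FPKM, and Nrp2 was at 29.7 and 29.6 FPKM at D0, 4.67 to 5.95 FPKM later in the time course and 12.2 to 15.6 FPKM in the transduced cells. Vegfb, a ligand of Flt1, was at 73.6 FPKM with and 57.5 FPKM without ROS at D8. Figf (Vegfd) was at 14.7 and 40.9 FPKM. Of 8 measured VEGF ligands and receptors, Vegfa included, 0 were at least 2-fold higher with ROS at D8 and 3 at most 0.5-fold (4% and 15.2% of all genes).

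The protein made from Vegfa depends on splicing. The 132-base exon usually numbered 7 is in the forms that bind heparin and neuropilins, and the 72-base exon usually numbered 6 is added in the longest common form, which stays bound to the matrix. Both are shown as the exons whose coverage was followed, in capitals on the coding strand with 10 intron bases on each side. They lie at mm9 chr17:46159226-46159297 (72 bases) and chr17:46157940-46158071 (132 bases).
Vegfa 72-base exon: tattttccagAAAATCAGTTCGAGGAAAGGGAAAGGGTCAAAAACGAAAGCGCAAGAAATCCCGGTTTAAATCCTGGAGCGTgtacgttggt
Vegfa 132-base exon: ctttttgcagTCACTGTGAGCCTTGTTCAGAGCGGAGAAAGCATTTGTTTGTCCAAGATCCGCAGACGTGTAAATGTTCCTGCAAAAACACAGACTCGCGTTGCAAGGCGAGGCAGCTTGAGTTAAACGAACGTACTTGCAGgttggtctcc
Coverage per position of the 72-base exon over the 132-base exon was 0.0473 and 0.0887 at D0. It was 0.103 with and 0.157 without ROS at D4, and 0.167 and 0.0839 at D8. Among transduced cells, WT A gave 0.218, WT B 0.224, S265A 0.220, S265D 0.173 and S265D-H1120Y 0.133.

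The WT samples, far apart in the Vegfa level, were close in this ratio, and the transduced samples with the most Vegfa, S265D and S265D-H1120Y, had the lowest ratios of the 5. The direction of ROS was opposite at D4 and D8. The D0 ratios rest on 801 and 1353 bases in the short exon, against 14035 bases in S265D-H1120Y. Those at D4 rest on 1491 bases with and 1376 without ROS, and those at D8 on 4295 and 1304. The directions of ROS thus rest on few bases as well. Coverage per position of the 132-base exon over the rest of the transcript was 0.878 and 0.884 at D0 and 0.906 to 1.39 later, highest in S265D. Values above 1 cannot be shares of transcripts with the exon. Coverage therefore also differed in other ways, which were not tested, and the ratios are not measures of splicing alone. These ratios were computed after the transcripts had been seen, with no test.

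**Figure D3:**
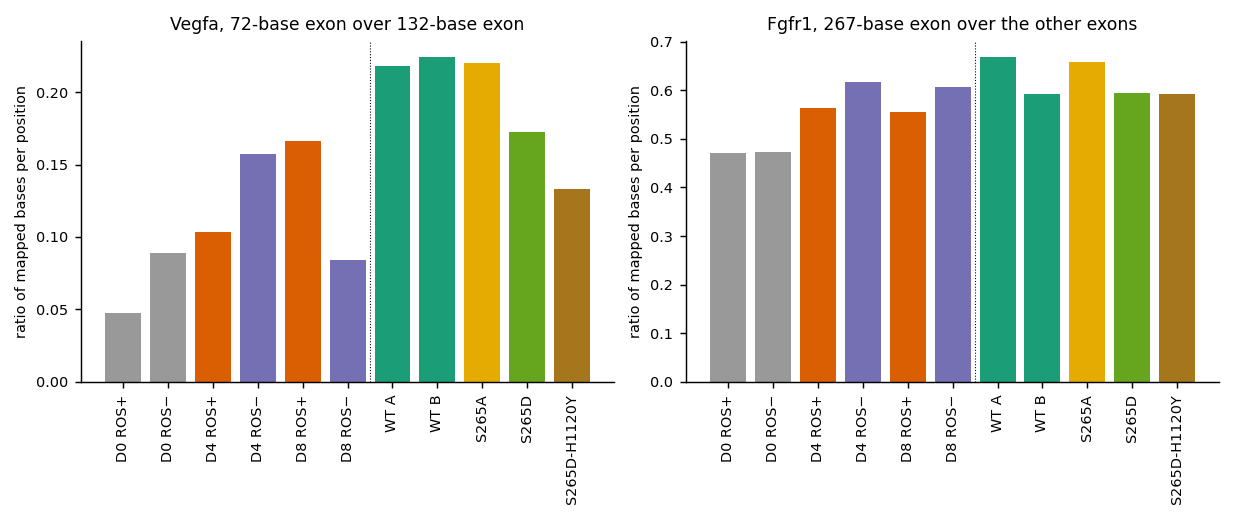
Coverage ratios (y axes, from 0) of the Vegfa 72-base over its 132-base exon (left) and of the Fgfr1 267-base exon over the other exons (right), 1 bar for each of the 11 samples and no error bars. The Vegfa ratio is lowest in a D0 sample (0.0473) and highest in WT B (0.224), and the Fgfr1 ratio is lowest at D0 (0.471 and 0.473).

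By ratio alone, 3 of the 6 genes (Fgf21, Klb and Nrg4) were at least 2-fold higher with ROS at D8, where 4% of 15536 genes were. At most 0.5-fold were 0 of 6, where 15.2% of genes were. The ratio takes no account of the error, and each arm held 1 sample. At D4, 1 of 6 was at least 2-fold higher (Fgf21), where 2.2% of 15246 genes were, and 0 at most 0.5-fold, where 4.51% were. Rescaling each sample to equal medians moved the ratio of all genes at D8 by 0.18 on the log2 scale and changed the split of all genes from 622 higher and 2366 lower to 853 and 1838; the 3 genes stayed the same. The marker sums moved with ROS at D8 as well. They stood at 36475 FPKM with and 10286 FPKM without it for the 8 adipocyte markers, and at 139 and 571 FPKM for the 6 preadipocyte markers. Fabp4 alone gave 31402 and 7631 FPKM of the adipocyte sums. Of the 8 adipocyte markers, 2 were at least 2-fold higher and 0 at most 0.5-fold, and Pparg and Retn were lower. Their median log2 difference was 0.59 against -0.20 for all genes. The part of the cell markers in the differences was not tested. By limma 0% of 16400 genes passed for ROS at D8, at D4 or for the difference between these days, and 5011, 1862 and 2763 had an unadjusted p under 0.05. With a minimum of 1 FPKM, 895 genes passed limma at D8, Klb among them (adjusted p = 0.0466). The error of Klb there again rested on D0 values near 0.

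**Figure D4:**
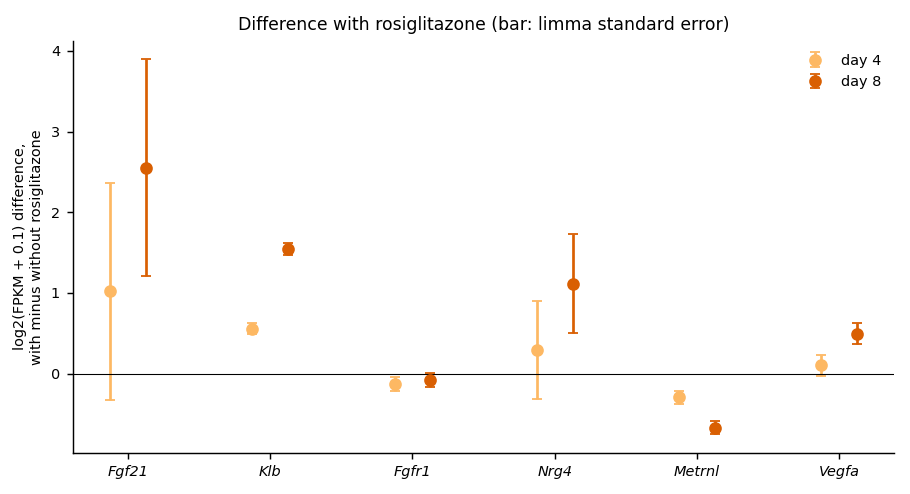
Difference in log2(FPKM + 0.1) with minus without ROS (y axis) for the 6 genes at D4 (light) and D8 (dark). Each point is the difference between 1 sample with and 1 without ROS. Bars are the standard error limma took from the D0 pair and all genes. Fgf21, Klb and Nrg4 lie higher at D8 (2.55, 1.54 and 1.12) than at D4. The bars of Fgf21 and Nrg4 are longer than that of Klb, whose D0 values were both near 0 and nearly equal.

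Against D0, where Klb, Nrg4 and Metrnl supplied the calls, 2 of the 6 genes passed limma at D4 with ROS, where 34.7% of 16400 genes did, and 3 of 6 at D8 with ROS, where 47.2% did. Without ROS, 2 of 6 passed at D4 (29.1% of genes) and 2 of 6 at D8 (34.7% of genes). These comparisons share the D0 samples. Without either one of the D0 libraries, with the spread taken from the WT pair, 0 genes passed in any of the 4.

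The transduced samples asked whether the state of S265 and the Fe(II) site of JMJD1A changed these genes, and for Fgf21 and Nrg4 the values depended on which WT sample was taken. The labels do not tie any mutant to WT A or to WT B, so whether a mutant was made alongside both is not known, and a mean of the pair may join 2 experiments. Fgf21 was 4.91-fold and Nrg4 5.10-fold higher in WT A than in WT B, where 10.8% of genes were at least 2-fold higher, and 0 of 6 genes were at most 0.5-fold, where 16.4% were. Ucp1 (12.1 against 0.724 FPKM) and Ppara moved with them. Klb, Fgfr1 and Pparg did not, with ratios of 0.802, 1.15 and 0.939. So S265A was 0.163-fold WT A and 0.800-fold WT B for Fgf21, and 0.342-fold and 1.74-fold for Nrg4.

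Over the mean of both WT samples, 1 of 6 genes was at most 0.5-fold in S265A (Fgf21, 0.271-fold), where 6.4% of 15681 genes were, and 0 were at least 2-fold, where 3.49% were. Without WT A there were 0 such genes and without WT B 2. For S265D over WT, 0 of 6 passed in either direction, where 4.11% of 15748 genes were at least 2-fold higher and 4.56% at most 0.5-fold. Against WT A alone, Fgf21 and Nrg4 were 0.323-fold and 0.497-fold in S265D, and against WT B alone 1.58-fold and 2.53-fold.

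**Figure D5:**
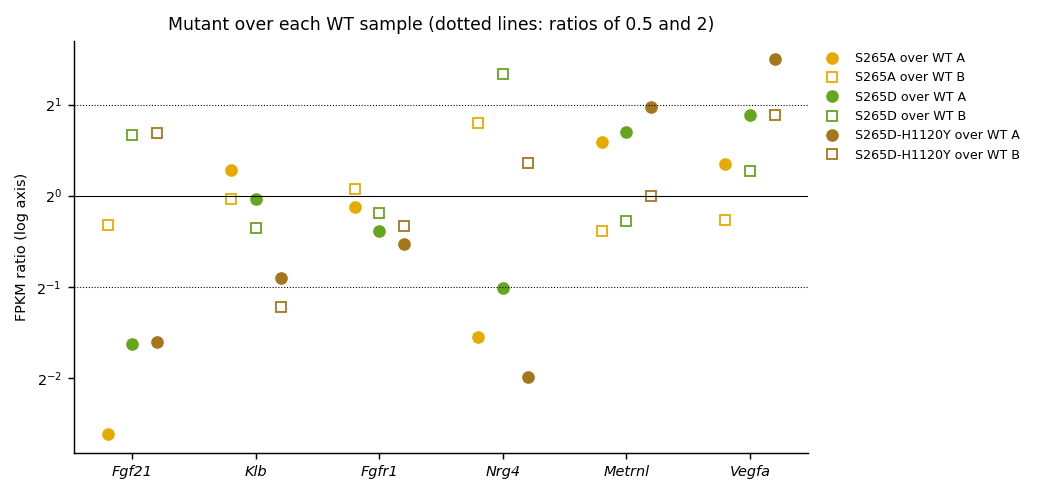
FPKM ratio (log axis) of S265A, S265D and S265D-H1120Y over WT A (filled circles) and over WT B (open squares) for the 6 genes, each point a ratio of 2 samples with no error bar. For Fgf21 and Nrg4 the circles and squares of 1 mutant lie about 5-fold apart, and for Klb and Fgfr1 they lie close together.

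The mutants can be compared without the WT samples. S265D over S265A gave 1.98-fold for Fgf21 and 1.45-fold for Nrg4, and 0 of 6 genes reached 2-fold up or down, where 7.45% and 3.8% of 15692 genes did; after rescaling Fgf21 passed 2-fold. S265D-H1120Y over S265D gave 1.02-fold for Fgf21, 0.506-fold for Nrg4, 0.548-fold for Klb and 1.53-fold for Vegfa, and 0 of 6 genes reached 2-fold up or down, where 5.62% and 8.66% of 15760 genes did. Ucp1 fell to 0.0113-fold between the same libraries, with a log2 difference of -4.97 ± 2.32 that limma did not resolve (adjusted p = 1). Limma passed 0% of 16402 genes in each of these mutant comparisons, with 96 to 187 genes at an unadjusted p under 0.05.

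WT over the untransduced cells at D8 with ROS gave 2 of 6 genes at least 2-fold higher, Nrg4 (2.25-fold) and Metrnl (2.04-fold), where 18% of 15617 genes were, and 0 at most 0.5-fold, where 4.93% were. Nrg4 was 3.77-fold in WT A and 0.740-fold in WT B, and Fgf21 2.48-fold and 0.504-fold. Vegfa was above the untransduced sample in both, 1.38-fold and 2.11-fold. By limma 0% of 17075 genes passed, with 2345 at an unadjusted p under 0.05.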

How the data were processed

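RNA of 11 im-scWAT samples was sequenced by the authors with strand-specific libraries, aligned with BWA to UCSC transcripts and the mouse genome mm9 and summed per transcript and strand. The FPKM values are the authors' own, from all mapped bases, with no replicate averaging. The deposited coverage signal (mapped bases per transcript) gave depths and exon coverage. The deposited log2 and log10 columns restate the FPKM, with an FPKM of 0 written as a fixed low value, and were not used. The labels say that ROS was removed for the last day before D8, while the study's methods for this line have it until D8.

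Each symbol was read from its representative sense transcript (29955 of 55419 transcripts). limma (version 3.58.1, R 4.3.3) was fitted to log2(FPKM + 0.1) of genes with at least 0.1 FPKM in any sample, separately for the 6 time-course and the 5 transduced samples (WT over untransduced: all 11), with Benjamini-Hochberg adjustment over all genes. Errors rest on the D0 pair or the WT pair. p-values measure only the spread between these samples, which may be technical. A ratio call needs at least 2 or at most 0.5 and 0.1 FPKM in 1 of the groups. The fits were run on simulated data only to see that a planted log2 difference was returned at its size, which does not check the calls. Alternatives changed the pseudocount, filter, transcript, scaling, fit and WT or D0 samples. The genes, lists and tests were chosen with earlier results of these data known; the named genes are the 6, reference genes, the 5 most like Fgf21 and Nrg4, and per list the highest and lowest 3 by ROS difference at D8 plus receptors and regulators, and some genes the rule names are not reported here. Nrg1, Slc2a1 and Pgk1, which fall outside this rule, and the exon ratios were chosen after values were seen. Promoters are RefSeq windows (GRCm38.p6) matched to mm9 by sequence.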

Additional observations from a re-analysis of the deposited data

Results flagged for a closer look

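Antisense signal over Vegfa and Nrg4 lies outside the sense values used above and was higher in every later sample than at D0. Over Vegfa it was 0.206 and 0.155 FPKM at D0 and ran from 0.284 to 0.671 FPKM in the 9 later samples, with the lowest in WT A and the highest in S265D-H1120Y. The sense values of these 2 samples were far higher, at 86.7 and 245 FPKM, and whether sense reads were assigned to the wrong strand was not tested. Over Nrg4 the antisense signal was 1.70 and 1.59 FPKM at D0 and ran from 1.77 to 2.49 FPKM later, so the 2 ranges lay close together. On the Nrg4 transcript that stops short of Fbxo22 (uc009psi.2) the antisense signal ran from 0.119 to 0.463 FPKM. Antisense values of the other 4 genes did not separate D0 from the later samples.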

How the results depend on the processing

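No paired analysis was possible because replicate letters occur in the WT group alone. Values in this paragraph are log2 differences of the 6 genes, recomputed 654 times; 595 kept their direction and their side of the threshold, 25 lost the call, 20 gained it and 14 reversed. The cause was not tested for any of them. Errors rest on 1 or 2 residual degrees of freedom, and FPKM gives no counting error of its own.

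Calls over D0 were gained for Fgf21, Nrg4 and Fgfr1. For D4 with ROS, Fgf21 passed with a pseudocount of 1 (2.76) and with a minimum of 1 FPKM (5.12), and Nrg4 with a pseudocount of 1 (1.89), a minimum of 1 FPKM (3.89), rescaling (3.89) and a trended prior (3.89). For D8 with ROS, Fgf21 passed with a pseudocount of 1 (3.50) and a minimum of 1 FPKM (5.95), and Fgfr1 with a pseudocount of 1 (-0.48), a minimum of 1 FPKM (-0.49) and a trended prior (-0.49). For D4 without ROS, Fgf21 passed with a pseudocount of 1 (1.90) and Nrg4 with a pseudocount of 1 (1.67), a minimum of 1 FPKM (3.60) and rescaling (3.54). For D8 without ROS, Nrg4 passed with a pseudocount of 1 (1.99), a minimum of 1 FPKM (4.01), rescaling (3.92) and a trended prior (4.01). For ROS at D8, Klb passed with a minimum of 1 FPKM (1.54), as did 895 genes in all against 0.

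Calls were lost for Nrg4 at D8 with ROS with a pseudocount of 0.01 (5.93), no filter (5.13) and 1 fit of all 11 samples (5.13). In that fit Metrnl lost its calls at D4 and D8 with ROS (-2.54 and -2.01) and without it (-2.25 and -1.34), and 442 and 1723 genes passed with ROS and 251 and 407 without it. Without a D0 sample, 0 genes passed over D0. Klb then ran from 7.05 to 7.05 (D4) and 7.49 to 7.49 (D8) with ROS and from 6.50 to 6.50 and 5.94 to 5.94 without it, Metrnl from -2.57 to -2.52 and -2.04 to -1.99 with ROS and from -2.28 to -2.23 and -1.37 to -1.32 without it, and Nrg4 at D8 with ROS from 4.70 to 5.55.

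Directions reversed for Fgfr1 with rescaling (ROS at D8, 0.11; D4 without ROS over D0, -0.031), with 1 D0 sample left out in turn (D4 without ROS over D0, -0.035 to 0.039) and with the transcript of highest mean (ROS at D8 minus D4, -0.0023). With WT A or WT B left out, the reversed value being that without WT A unless stated, S265A over WT ran from -0.041 to 0.28 for Klb and from -0.39 to 0.58 for Metrnl, from -0.27 to 0.35 for Vegfa, from -0.12 to 0.076 for Fgfr1 and from -1.54 to 0.79 for Nrg4. S265D over WT ran from -1.62 to 0.66 for Fgf21, from -0.28 to 0.69 for Metrnl and from -1.004 (without WT B) to 1.32 for Nrg4. WT over untransduced ran from -0.98 to 1.30 for Fgf21 and from -0.43 to 1.90 for Nrg4.

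Of the 6 genes, 0 reached 2-fold for ROS at D4 with a pseudocount of 1 (1 as reported), 1 for S265D over S265A with rescaling (0 as reported) and 1 for WT over untransduced with a pseudocount of 1 (2 as reported). Without WT A or WT B, the number at most 0.5-fold ran from 0 to 2 for S265A and from 0 to 2 for S265D over WT, and the number at least 2-fold for S265D from 0 to 1.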

Other observations

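Other factors reported to be secreted by thermogenic fat were more often lower than higher with ROS at D8. Of the 13 measured, 1 was at least 2-fold higher and 8 were at most 0.5-fold, of which 3 were below 1 FPKM in both samples, against 4% and 15.2% of all genes, with a median log2 difference of -1.01 against -0.20 for all genes. Angptl4, an inhibitor of lipoprotein lipase and a known PPAR target, was the higher one, at 508 FPKM with and 115 FPKM without ROS. Lcn2, a lipocalin, was at 29.8 FPKM with and 85.4 FPKM without ROS. Gdf15, a stress hormone, was at 46.3 and 49.1 FPKM with and without ROS and at 96.7 FPKM in S265D-H1120Y. By limma 0 of the 13 passed for ROS at D8.

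In S265D-H1120Y over S265D, 6 of the 12 ATF4 stress-response genes were at least 2-fold higher and 0 at most 0.5-fold, against 5.62% and 8.66% of all genes. Their median log2 difference was 1.02 against -0.05 for all genes. Fgf21 had an FPKM ratio of 1.02 between the same libraries, and a link between it and these genes was not tested. By limma 0 of the 12 passed, in a comparison of single samples.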
